A study of Mus musculus with 12 samples.

Results

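The 8 genes of the lens membrane and its fiber cells considered here were measured across the 4 genotypes of a lens RNA-seq experiment: the connexins *Gja1* and *Gja3*, the aquaporins *Mip*, *Aqp1* and *Aqp5*, and the fiber cell genes *Lim2*, *Lgsn* and *Birc7*. They were taken by symbol from a table of 55487 gene identifiers, where they held 9 entries because *Lim2* was listed under 2 identifiers. Lens RNA was collected at P7 (7 days of age) from wild-type (WT), *Trpm3*-KO (KO), *Trpm3*-I/M (I/M) and *Trpm3*-M/M (M/M) mice, with 3 libraries per genotype and 12 in all. *Trpm3* encodes a calcium-permeable cation channel of the lens epithelium. The I/M mice were heterozygous and the M/M mice homozygous for a cataract-causing isoleucine-to-methionine substitution introduced by CRISPR/Cas9 editing. The KO mice carried a targeted allele with a LacZ-neo cassette, made by homologous recombination. The study's methods place all strains on the C57BL/6J background and describe each library as RNA of 4 male and 4 female lenses, so a library is a pool and not 1 animal. Whether the 3 libraries of a genotype came from separate litters is not given in the sources used here, and the p-values measure the spread between these pools.

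The lens has no blood supply, and its cells depend on each other for ions, metabolites and water. Connexins form gap junction channels between cells. *Gja1* (connexin 43) is known as a connexin of the lens epithelium, and *Gja3* (connexin 46) joins fiber cells to each other. Aquaporins are water channels. *Mip* (aquaporin 0) is the most abundant membrane protein of the fiber cell, *Aqp1* is the water channel of the lens epithelium and of many blood vessels, and *Aqp5* is found in epithelium and fibers. *Lim2* encodes a 4-pass membrane protein at fiber cell junctions, *Lgsn* (lengsin) a fiber protein related to glutamine synthetase, and *Birc7* (livin) a member of the inhibitor-of-apoptosis family.

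The total counted on genes ran from 56162169 to 82090198 per library, and was higher in I/M and M/M (65454127 or more) than in WT and KO (60992835 or less). Crystallin genes, which mark lens tissue, took 49.4 to 63.9% of the counts. Levels are given as CPM, a gene's counts scaled to the size of its library. The targeted gene *Trpm3* stood at 270, 251 and 285 CPM in WT and at 89.9, 99.7 and 96.3 CPM in KO. It rose in the other genotypes, to 370, 413 and 376 CPM in I/M and 473, 469 and 484 CPM in M/M. A single I/M library, replicate 3, held 5 counts of the female-expressed gene *Xist* against 5487 and 9960 in the other libraries of that genotype, so its mix of sexes is in doubt. No pair of libraries of a genotype agreed within sampling noise.

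The genes lie on 7 chromosomes (GRCm38 coordinates). *Gja1* lies at chr10:56377330-56402513, *Mip* at chr10:128225838-128231812, *Aqp1* at chr6:55336432-55348555, *Aqp5* at chr15:99590782-99594829, *Lgsn* at chr1:31176401-31204725 and *Birc7* at chr2:180929023-180934010, each on the plus strand. *Gja3* lies at chr14:57034460-57058100 on the minus strand. *Lim2* lies at chr7:43427670-43435996, and its second identifier covers the same gene from 43430099 onward by RefSeq. The 250 bases before the RefSeq start are printed for 4 genes that moved in different ways in the mutant lenses: *Mip* and *Birc7*, which were lowest in M/M, *Gja1*, which was lowest in I/M, and *Aqp1*, which rose in M/M. Their windows hold no annotated exon. Sequences are from RefSeq (GRCm38.p6), read 5′ to 3′ on the plus strand, at chr10:128225560-128225809 (*Mip*), chr2:180928773-180929022 (*Birc7*), chr10:56377050-56377299 (*Gja1*) and chr6:55336049-55336298 (*Aqp1*). Capitals mark matches, on either strand, to 6 short motifs. These were the TATA box (written TATAAA), the Sp1 box (written GGGCGG), the AP-1 motif (written TGANTCA), the half-site of the Maf factors (written TGCTGA), the Sox motif (written ACAAAG) and the core of the heat shock element (written TTCNNGAA).
Mip: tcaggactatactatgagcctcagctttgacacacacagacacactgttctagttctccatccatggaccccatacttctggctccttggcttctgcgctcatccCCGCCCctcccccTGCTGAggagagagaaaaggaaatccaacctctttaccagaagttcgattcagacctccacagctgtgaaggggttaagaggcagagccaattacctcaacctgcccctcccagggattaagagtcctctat
Birc7: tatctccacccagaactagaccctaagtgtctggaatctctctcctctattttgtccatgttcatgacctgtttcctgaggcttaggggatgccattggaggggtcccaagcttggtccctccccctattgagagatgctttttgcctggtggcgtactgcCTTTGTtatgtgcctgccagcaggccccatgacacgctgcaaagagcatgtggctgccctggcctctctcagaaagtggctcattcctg
Gja1: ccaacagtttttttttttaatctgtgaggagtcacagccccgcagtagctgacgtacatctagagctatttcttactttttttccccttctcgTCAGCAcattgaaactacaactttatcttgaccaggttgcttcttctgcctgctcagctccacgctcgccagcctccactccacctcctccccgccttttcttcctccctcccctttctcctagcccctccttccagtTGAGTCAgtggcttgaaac
Aqp1: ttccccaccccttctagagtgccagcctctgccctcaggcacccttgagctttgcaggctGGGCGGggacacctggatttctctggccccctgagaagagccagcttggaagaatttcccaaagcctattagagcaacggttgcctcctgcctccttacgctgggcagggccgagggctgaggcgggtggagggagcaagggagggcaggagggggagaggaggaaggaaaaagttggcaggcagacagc

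The *Mip* window held a Maf half-site and an Sp1 box, next to each other between 145 and 127 bases before the start. *Birc7* held a Sox match on the minus strand. *Gja1* held an AP-1 match 19 to 13 bases before the start and a Maf half-site farther upstream, and *Aqp1* held an Sp1 box. The same windows of all 32851 promoters in the RefSeq set held an Sp1 box in 32.7%, a Maf half-site in 16.1%, a Sox match in 16.5%, an AP-1 match in 6.7%, a TATA box in 12.4% and a heat shock element core in 7.2%. A match of letters is a description and was not tested against the expression values.

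Libraries were scaled with TMM factors, genes with at least 5 CPM in at least 3 libraries were kept (8984 genes, with all 9 entries of the 8 genes among them), and genotypes were compared with edgeR's quasi-likelihood test. Adjusted p-values are Benjamini–Hochberg values over the 8984 genes. A gene was called where its fold change (FC) was at least 2 and its adjusted p (FDR) at most 0.05, and calls by FDR alone are given beside these. The 3 comparisons with WT share the WT libraries.

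None of the 9 entries was called in KO by either rule, and none had an unadjusted p under 0.05 with edgeR. Over all genes tested, 0.568% were called there with both thresholds and 4.36% by FDR alone. In I/M, 1 entry (*Gja1*) was lower past both thresholds, as 0.746% of all genes tested were. By FDR alone 7 entries from 6 of the 8 genes were lower and none higher, against 15.3% lower and 17.3% higher over all genes. With libraries scaled by size only, without TMM factors, 3 entries (*Gja1*, *Aqp5* and *Birc7*) were lower in I/M, against 3.95% lower and 51.9% higher over all genes. In M/M, 1 entry (*Aqp1*) was higher past both thresholds, as 6.42% of all genes were. By FDR alone 6 entries were lower and 1 higher, in a comparison where 31.4% of all genes were lower and 31.4% higher. By library size only, 5 entries were lower and 2 higher in M/M, against 5.51% lower and 82% higher over all genes. The libraries of I/M lay below those of WT without overlap for 7 entries (21.5% of all genes), and those of M/M lay below WT for 6 entries (32.4%) and above it for 1 (32.8%). The median log2 fold change over the 9 entries was −0.04 in KO, −0.29 in I/M and −0.73 in M/M, and that of all genes tested was −0.0042 in M/M and nearer to 0 in the others. The plot of fold changes shows all 8 genes side by side.

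**Figure D1:**
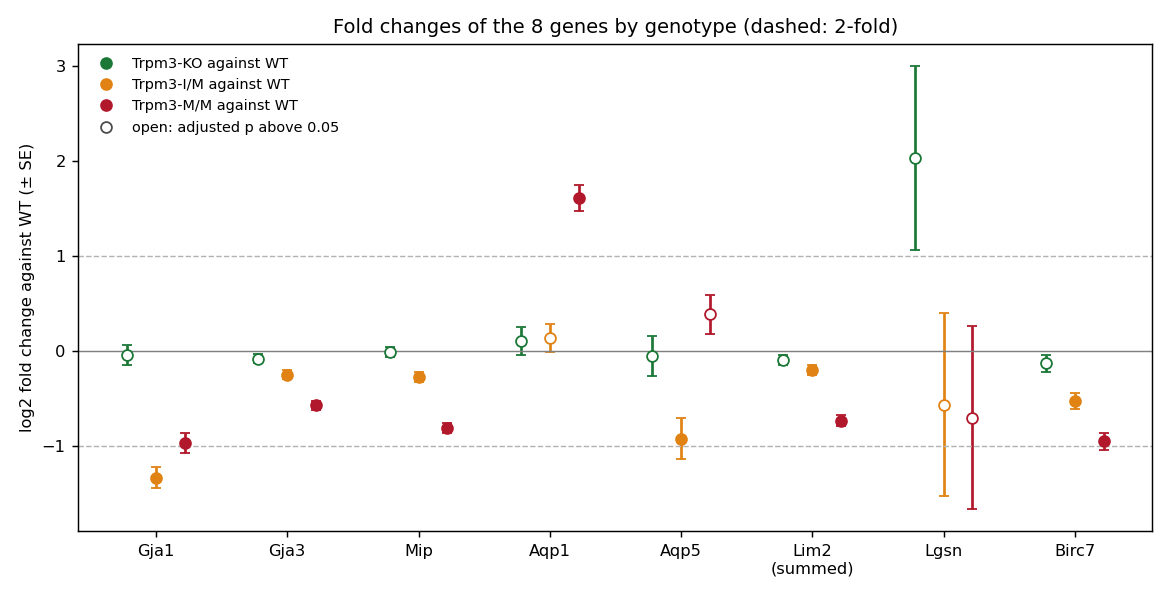
Log2 fold change against WT (vertical axis, ± SE) of each of the 8 genes (horizontal axis) in KO, I/M and M/M, with filled points where the adjusted p was at most 0.05 and dashed lines at 2-fold. *Gja3*, *Mip*, *Lim2* and *Birc7* step down from I/M to M/M with TMM scaling, *Gja1* is lowest in I/M at −1.33, *Aqp1* rises in M/M at 1.61, and the bars of *Lgsn* are the longest.

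*Gja1* was the member with the largest fall in heterozygous lenses. Its level was 42.4, 39.6 and 38.6 CPM in WT, 36.9, 37.9 and 42.5 CPM in KO, 15.8, 17.5 and 14.6 CPM in I/M and 18.0, 24.8 and 18.9 CPM in M/M. WT and KO libraries overlapped, and every I/M and M/M library lay below all of them, with the I/M libraries lowest. *Gja1* fell 2.51-fold in I/M (log2 fold change −1.33 ± 0.11 SE, adjusted p = 8.8e-07). It fell 1.95-fold in M/M (−0.97 ± 0.11, adjusted p = 3.46e-06), just short of the fold threshold. The direct comparison of M/M with I/M gave a rise of 0.36 ± 0.11 (adjusted p = 0.0121), so the level did not decrease with the number of mutant alleles. Without I/M replicate 3, the library of doubtful sex mix, this last difference was 0.30 with an adjusted p of 0.0532, whereas the fall in I/M held at −1.27 (adjusted p = 7.8e-06). In KO the log2 fold change was −0.04 ± 0.10 (adjusted p = 0.884).

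Bulk lens RNA cannot tell fewer cells of a type from less RNA per cell. Of 10 epithelial marker genes, *Trpm3* among them, 3 were lower and none higher in KO by FDR alone. Of the 10, 4 were lower and 3 higher in I/M, and 5 were lower and 2 higher in M/M. Between the mutants 7 of them were lower in M/M and 2 higher. Over all genes tested, 15.3% were lower and 17.3% higher in I/M, and 31.4% each way in M/M. In KO 2.2% were lower, and between the mutants 25.7% were lower and 25.6% higher. With library size only, 3 markers were lower and 3 higher in I/M, and 4 lower and 5 higher in M/M. Between the mutants 4 were then lower and 3 higher. On that scale 3.95%, 5.51% and 5.43% of all genes were lower in these comparisons, and 51.9%, 82% and 70.4% were higher. The summed level of the 10 was 2376 to 2419 CPM in WT, 2673 to 2779 CPM in I/M and 2381 to 2474 CPM in M/M, most of it from *Dkk3* and *Trpm3*. Without *Trpm3* the sum was 2107 to 2134 CPM in WT, 2297 to 2408 CPM in I/M and 1912 to 1990 CPM in M/M. Without *Dkk3* as well it was 431 to 480 CPM in WT, 338 to 367 CPM in I/M and 261 to 264 CPM in M/M. In KO these sums, in the same order, were 2265 to 2292, 2169 to 2202 and 385 to 407 CPM. The last sum was below WT in KO, where *Gja1* overlapped WT, and lowest in M/M, where *Gja1* was above its I/M level. The epithelial transcription factor *Foxe3* fell further in M/M (−2.24 ± 0.12, adjusted p = 4.57e-09) than in I/M (−0.96 ± 0.12, adjusted p = 3.95e-05). Between the mutants *Foxe3* fell by 1.28 (adjusted p = 2.04e-06), the largest fall of the 10 markers, where *Gja1* rose. The 2 markers that were higher there, *Pdpn* and *Trpm3*, rose by 0.79 and 0.30 (adjusted p = 2.05e-07 and 0.000926). Smooth muscle and pericytes also express *Gja1*, and the summed level of 8 of their markers was 75.3 to 91.6 CPM in WT, 100 to 126 CPM in I/M and 236 to 327 CPM in M/M. Most of that sum was *Acta2*, at means of 68.3 CPM in WT, 90.5 CPM in I/M and 212 CPM in M/M. Of these 8 markers, 5 were tested and 4 were called higher in M/M, as 6.42% of all genes tested were. *Cspg4*, *Tagln* and *Rgs5* passed the CPM filter only with the help of M/M libraries. The filter thus chose them for being high there, and their calls are not a separate result. No marker of either list was at 0 in every library of a genotype, and the part of these cells in the *Gja1* values was not tested.

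The 3 genes of at least 50 CPM whose WT-centred log2 levels lay nearest to *Gja1* over the 12 libraries, among 1573 genes compared, were *Clic5*, *Pacsin3* and *Pcnx*. Their root mean square differences were 0.27, 0.29 and 0.29. *Clic5*, which encodes an intracellular chloride channel protein, was alone of the 3 in being lowest in I/M: it fell by 1.44 there and by 1.09 in M/M on the log2 scale, although the rise of 0.35 between the mutants did not pass the test (adjusted p = 0.108). *Pacsin3* and *Pcnx* were lowest in M/M.

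*Gja3* was far more abundant and changed by less. It stood at 1051, 1103 and 1145 CPM in WT, 1067, 1027 and 1035 CPM in KO, 922, 947 and 916 CPM in I/M and 783, 720 and 722 CPM in M/M. The KO libraries overlapped WT, the I/M libraries all lay below WT, and the M/M libraries lay below those. *Gja3* fell 1.18-fold in I/M (−0.24 ± 0.05, adjusted p = 0.00163) and 1.48-fold in M/M (−0.57 ± 0.05, adjusted p = 2.79e-07). Between the mutants it fell by 0.32 (adjusted p = 9.76e-05). None of these 3 differences passed with library size only, where they were −0.044 in I/M (adjusted p = 0.469), −0.060 in M/M (adjusted p = 0.276) and −0.016 between the mutants (adjusted p = 0.786). Per kilobase of exon, *Gja3* in WT was 94.7 times the level of *Gja1*.

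*Mip*, the fiber aquaporin, led the group in level and was lowest in homozygous lenses. It was at 8247, 8414 and 8054 CPM in WT, 8072, 8208 and 8338 CPM in KO, 6592, 7208 and 6749 CPM in I/M and 4869, 4679 and 4529 CPM in M/M. KO was indistinguishable from WT within the spread of the libraries (−0.01 ± 0.05, adjusted p = 0.971), and the mutant genotypes overlapped neither WT nor each other. *Mip* fell 1.20-fold in I/M (−0.27 ± 0.05, adjusted p = 0.00164) and 1.76-fold in M/M (−0.81 ± 0.05, adjusted p = 2.19e-08). With library size only, the difference in I/M was −0.065 and did not pass (adjusted p = 0.282), while that in M/M was −0.30 (adjusted p = 5.9e-05). Its share of the CPM summed over 12 aquaporin genes was 99.7% in WT and 98.9% in M/M. Per kilobase, *Mip* in WT was 10.3 times *Gja3*, 1103 times *Aqp1* and 1055 times *Aqp5*. An antisense gene overlaps its 3′ end and was not counted in the table. Whether counting used strand is not given in the sources used here, and the part of antisense reads in the *Mip* values was not tested.

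*Lim2* and *Birc7*, both fiber cell genes, were likewise highest in WT and KO and lowest in M/M. The 2 *Lim2* entries shared reads: their counts were fractional in 12 of 12 libraries, and their sum was whole in each. Summed, *Lim2* stood at 3093 to 3311 CPM in WT, 3001 to 3110 CPM in KO, 2788 to 2856 CPM in I/M and 1827 to 2100 CPM in M/M. The I/M libraries sat just below WT, and the M/M libraries well below both. The sum fell by 0.20 in I/M (adjusted p = 0.0139) and by 0.73 in M/M (adjusted p = 9.37e-08) on the log2 scale. The entry with fewer counts fell by 0.84 and the other by 0.73 in M/M. With library size only, neither entry passed in I/M, at −0.091 for the smaller (adjusted p = 0.192) and 0.0057 for the larger (adjusted p = 0.929), and both still passed in M/M.

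*Birc7* was at 220, 246 and 210 CPM in WT, 218, 199 and 201 CPM in KO, 147, 150 and 173 CPM in I/M and 132, 108 and 109 CPM in M/M. No mutant library reached the lowest WT library, and the mutants did not overlap each other. It fell 1.44-fold in I/M (−0.52 ± 0.09, adjusted p = 0.000501) and 1.93-fold in M/M (−0.95 ± 0.09, adjusted p = 6.97e-07). Between the mutants it fell by 0.42 (adjusted p = 0.00128), but with library size only this difference was −0.12 and did not pass (adjusted p = 0.167). The plot of levels by library shows the TMM-scaled values.

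**Figure D2:**
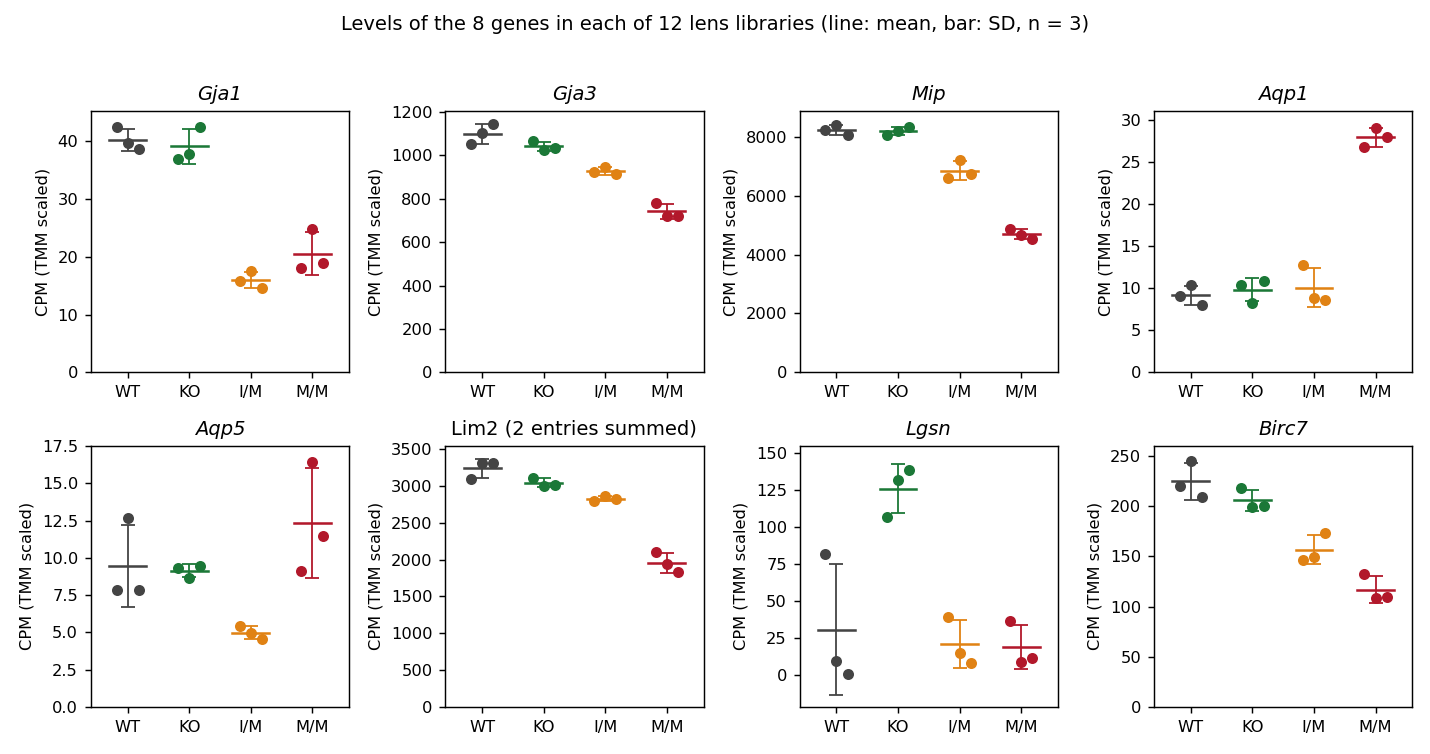
TMM-scaled CPM of each gene (vertical axes, starting at 0 except for *Lgsn*, whose SD bar runs below 0) in the 3 libraries of each genotype (horizontal axes), with points for libraries, lines for means and bars for the SD. *Gja3*, *Mip*, *Lim2* and *Birc7* drop from WT to M/M with I/M between them, *Aqp1* sits at 26.8 to 29.1 in M/M and at 12.8 or less elsewhere, and *Lgsn* spreads widely in every genotype but KO.

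*Aqp1* was the member called higher in homozygous lenses than in WT. It measured 9.06, 10.4 and 8.03 CPM in WT, 10.4, 8.28 and 10.8 CPM in KO, 12.8, 8.91 and 8.56 CPM in I/M and 26.8, 29.1 and 28.1 CPM in M/M. The first 3 genotypes overlapped each other, and every M/M library was above all 9 of their libraries. The rise in M/M was 3.06-fold (1.61 ± 0.14, adjusted p = 3.89e-07) and that over I/M was 2.78-fold (1.47 ± 0.14, adjusted p = 1.59e-06). In I/M the difference from WT was 0.14 ± 0.15 (adjusted p = 0.501), and in KO it was 0.11 ± 0.15 (adjusted p = 0.778).

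Blood vessels and red blood cells also carry *Aqp1*. Of 10 vascular endothelial markers, 6 were tested, of which 5 were called higher in I/M and 5 in M/M. Of all 8984 genes tested, 232 were called higher in I/M and 577 in M/M. The other tested marker, *Egfl7*, was lower in I/M (−0.30, adjusted p = 0.0241) and did not differ in M/M (0.06, adjusted p = 0.577). It was the largest part of the WT sum, at a mean of 7.78 CPM. *Pecam1*, *Cdh5*, *Tie1* and *Cldn5* passed the CPM filter only through M/M, with every WT, KO and I/M library at 3.63 CPM or less. The filter thus chose them for being high in M/M, and their calls there are not a separate result. The summed level of the 10 markers was 14.1 to 16.6 CPM in WT, 14.0 to 15.1 CPM in KO, 25.7 to 32.6 CPM in I/M and 61.55 to 70.5 CPM in M/M. It was thus above WT in I/M, where *Aqp1* overlapped WT, and highest in M/M, where *Aqp1* rose. Of the 10 markers 2 had at most 3 counts in every WT library, and none was at 0 throughout a genotype. Markers of red blood cells (6 genes, 1 tested and not called) summed to 1.22 to 12.04 CPM in WT and 12.4 to 15.0 CPM in M/M. The part of these cells in the *Aqp1* values was not tested.

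The genes nearest to *Aqp1* over the 12 libraries, by the same measure, were *S100a4*, *S100a6* and *Pgk1*, with root mean square differences of 0.22, 0.25 and 0.25. *S100a4* and *S100a6* encode small calcium-binding proteins and *Pgk1* a glycolytic enzyme. Their log2 fold changes in M/M were 1.48, 1.52 and 1.56, beside 1.61 for *Aqp1*. In I/M they were 0.42, 0.45 and 0.49, beside 0.14 for *Aqp1*.

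*Aqp5* separated the mutant genotypes from each other. It was at 7.86, 12.7 and 7.87 CPM in WT, 9.29, 8.63 and 9.49 CPM in KO, 5.45, 4.96 and 4.57 CPM in I/M and 9.14, 16.4 and 11.5 CPM in M/M. All 3 I/M libraries were below every other library, and the M/M libraries overlapped WT, with 1 high library in each. *Aqp5* fell 1.89-fold in I/M (−0.92 ± 0.22, adjusted p = 0.0054). In M/M it stood 0.39 ± 0.20 above WT on the log2 scale (adjusted p = 0.109), a difference that did not pass the test. M/M exceeded I/M 2.47-fold (1.31 ± 0.21, adjusted p = 0.000164). Without the high WT library, replicate 2, the difference of M/M from WT was 0.65 (adjusted p = 0.011), and without M/M replicate 1 it was 0.59 (adjusted p = 0.0162). Over all fits with a library left out this difference ran from 0.15 to 0.65, with an adjusted p of up to 0.491.

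Since *Gja1*, *Aqp5* and *Aqp1* differed in this way, the members did not share a pattern across the mutants. M/M against I/M called 3 entries higher (*Gja1*, *Aqp1* and *Aqp5*) and 5 lower by FDR alone, where 25.6% of all genes were higher and 25.7% lower. The same 3 and 5 entries did not overlap between the mutants, as 30.4% of all genes did not with M/M higher and 30.2% with M/M lower. With both thresholds 2 were higher and none lower, and 3.67% of all genes were higher. With library size only, 3 entries were higher by FDR alone and 3 lower (*Mip* and both *Lim2* entries), and 70.4% of all genes were higher and 5.43% lower.

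Ratios of counts within a library do not depend on how libraries are scaled. *Aqp1* had 1.11 ± 0.12 counts per 1000 *Mip* counts in WT (SD, n = 3), 1.20 ± 0.17 in KO, 1.48 ± 0.40 in I/M and 5.97 ± 0.41 in M/M. The M/M ratio was 5.40-fold that of WT, without overlap. *Aqp5* had 1.15 ± 0.31 counts per 1000 *Mip* counts in WT, 0.730 ± 0.083 in I/M and 2.64 ± 0.82 in M/M, and here the M/M libraries did not overlap WT. *Gja1* had 36.6 ± 3.4 counts per 1000 *Gja3* counts in WT, 37.5 ± 3.3 in KO, 17.2 ± 1.3 in I/M and 27.9 ± 5.9 in M/M. The I/M ratio lay below all others, while that of M/M overlapped WT. The two-sided exact permutation tests of 3 libraries against 3 cannot give a p below 0.1. The exact tests gave p = 0.1 for both mutants against WT in both aquaporin ratios (adjusted p = 0.15 over 12 comparisons), and p = 0.1 in I/M and 0.2 in M/M for the connexin ratio.

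**Figure D3:**
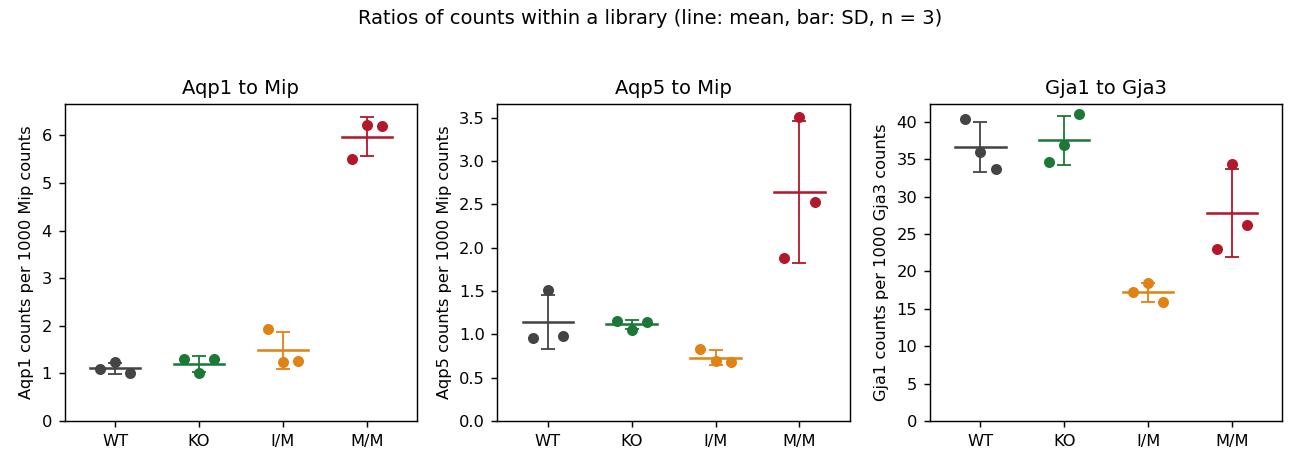
Counts of *Aqp1* and of *Aqp5* per 1000 *Mip* counts and of *Gja1* per 1000 *Gja3* counts (vertical axes) in the 3 libraries of each genotype (horizontal axes), with points for libraries, lines for means and bars for the SD. The *Aqp1* ratio is 5.50 to 6.21 in M/M and at most 1.94 elsewhere, and the *Gja1* ratio is lowest in I/M at 15.9 to 18.5.

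Scaling bears on the fiber genes because crystallins took 61.0 to 63.9% of the counts in WT and 49.4 to 51.3% in M/M. TMM factors were 0.828 to 0.905 in WT and 1.22 to 1.27 in M/M. With library size only, the median of all genes tested moved to 0.20 in I/M and 0.50 in M/M on the log2 scale. On that scale *Gja1*, *Gja3*, *Mip*, *Lim2* and *Birc7* still had negative log2 fold changes in M/M, from −0.46 to −0.06, and lay below that median. *Aqp5* passed the test in M/M on that scale (0.91, adjusted p = 0.000388).

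*Lgsn* stood apart through its spread. It was at 81.7, 9.66 and 0.654 CPM in WT (4154, 460 and 33 counts), 107, 132 and 139 CPM in KO, 38.9, 15.1 and 8.36 CPM in I/M and 36.4, 9.12 and 11.5 CPM in M/M. The KO libraries were close together and all above every other library, while the WT libraries spanned those of both mutants. *Lgsn* was 2.03 ± 0.97 higher in KO on the log2 scale, and this did not pass the test (adjusted p = 0.292). Of the 9 entries it was the 1 whose KO libraries all lay above WT, and 11.4% of all genes had all KO libraries above WT. In I/M and M/M the log2 differences were −0.56 ± 0.96 and −0.70 ± 0.96 (adjusted p = 0.697 and 0.549). With no filter on low counts the 3 differences from WT were of like size (2.03, −0.54 and −0.72) and all passed the test, with smaller standard errors. Since the WT libraries span those of both mutants, the p-values of that fit do not measure the spread between pools for this gene. Without WT replicate 1 the KO difference was 4.62 (adjusted p = 0.0167), and the differences of the mutants changed sign, to 2.02 and 1.89.

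The range of *Lgsn* between WT libraries was 6.15 on the log2 scale, against a median range of 0.15 for all genes tested. It ranked 2 of 8984, after *Palm* (paralemmin, a membrane-linked protein), which was looked up after the ranking was seen. *Palm* was at 14.5, 61.9 and 0.178 CPM in WT, 126, 123 and 121 CPM in KO, 15.1, 14.6 and 60.0 CPM in I/M and 14.8, 25.3 and 13.3 CPM in M/M. The lowest library of both genes was WT replicate 3, and both were highest and least spread in KO. By the same measure *Lgsn* ranked 4 in I/M (a range of 2.15) and 6 in M/M (1.94), and its range in KO was 0.37. Its counts were fractional in 11 of 12 libraries, and whether its reads were shared with other sequence was not tested. The antisense gene that overlaps *Lgsn* had at most 13 counts in a library.

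**Figure D4:**
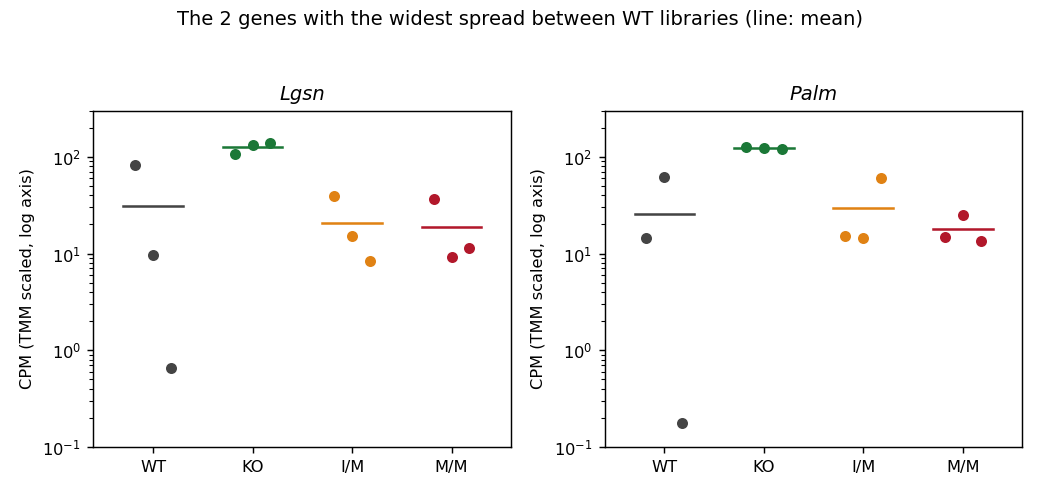
CPM on a log axis (vertical) of *Lgsn* and *Palm*, the 2 genes with the widest range between WT libraries, in the 3 libraries of each genotype (horizontal), with points for libraries and lines for means. Both span from under 1 to over 60 CPM in WT and stand above 100 CPM in each KO library.

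All 30 entries of fiber-preferred genes were tested. They include the members *Gja3*, *Mip*, *Lim2*, *Lgsn* and *Birc7*, but not *Gja1*, *Aqp1* or *Aqp5*. The counts of this list are thus not separate from those of the members. In KO none passed the test by either rule. In I/M 15 were lower and 3 higher by FDR alone, with a median of −0.22, and in M/M 20 were lower and 3 higher, with a median of −0.62. These were 50% lower and 10% higher in I/M and 66.7% lower and 10% higher in M/M, beside 15.3% and 17.3% of all genes in I/M and 31.4% each way in M/M. With library size only, 5 were lower and 9 higher in I/M and 13 lower and 12 higher in M/M. In I/M these were 16.7% lower and 30% higher, beside 3.95% and 51.9% of all genes on that scale. In M/M they were 43.3% lower and 40% higher, beside 5.51% and 82% of all genes. *Bfsp1*, *Lenep*, *Lctl* and *Clic5* passed both thresholds in M/M, all lower. *Bfsp1*, the beaded filament protein that binds aquaporin 0, went from 11556 to 12756 CPM in WT down to 4263 to 5837 CPM in M/M (−1.32 ± 0.11, adjusted p = 2.24e-07). *Gje1*, a lens connexin gene, was among those that rose: it was at 113 to 132 CPM in WT and 223 to 250 CPM in M/M (0.92 ± 0.06, adjusted p = 3.76e-08).

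Of 25 entries for partners and regulators of lens connexins and aquaporins, 21 were tested. None passed in KO, 4 were higher and 5 lower in I/M, and 7 were higher and 9 lower in M/M, with medians between −0.04 and 0.01. In M/M these were 33.3% higher and 42.9% lower, beside 31.4% of all genes in each direction, and in I/M 19.0% higher and 23.8% lower, beside 17.3% and 15.3%. With library size only, 10 were higher and none lower in I/M, and 17 higher and 3 lower in M/M. In I/M these were 47.6% higher, beside 51.9% higher and 3.95% lower over all genes on that scale. In M/M they were 81% higher and 14.3% lower, beside 82% and 5.51% of all genes. Besides *Bfsp1*, *Msn* and *Camk2d* passed both thresholds. *Msn* (moesin, which links membrane proteins to actin) was at 15.2 to 17.4 CPM in WT, 27.8 to 31.7 CPM in I/M and 68.8 to 77.7 CPM in M/M (2.18 ± 0.07, adjusted p = 1.84e-11). *Camk2d*, a subunit of the calmodulin-dependent kinase II, rose by 1.17 ± 0.08 in M/M (adjusted p = 3.63e-08).

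Of 23 connexin and pannexin genes, 4 passed the CPM filter, and of 12 aquaporin genes likewise 4. Apart from the members, *Aqp4*, the water channel of astrocytes and Müller glia, was the tested gene that differed in KO by FDR: it was at 5.96 to 6.93 CPM in WT and 9.61 to 10.9 CPM in KO (0.70 ± 0.09, adjusted p = 0.000424). It stood lower in I/M (−0.48 ± 0.09, adjusted p = 0.00159).

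Several family members below the filter were higher in the mutants, and these are named after their values were seen, with no test. *Gjb2* (connexin 26) was at 0.256, 0.105 and 0.377 CPM in WT, 2.06, 2.10 and 2.18 CPM in I/M and 3.15, 5.19 and 4.89 CPM in M/M. *Aqp3*, an aquaglyceroporin of surface epithelia, was at 0.452, 0.504 and 0.357 CPM in WT, 2.29, 2.16 and 2.52 CPM in I/M and 2.44, 3.35 and 2.38 CPM in M/M. In both genes every mutant library was above every WT and KO library. *Aqp8* was 20.6-fold the WT mean in M/M, at a mean of 3.75 CPM. *Gja4*, a connexin of arterial endothelium, had at most 1 count in a WT library and was at least 17.3-fold higher in M/M, against a floor of 3 counts per library. *Gjb6* and *Panx2* moved down instead, to 0.676 and 0.333 of the WT mean in M/M.

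*Gjb2* is also a gene of the corneal epithelium. Of 8 corneal markers, none passed the filter. The 6 other than *Gjb2* and *Gjb6* summed to 0.511 to 0.773 CPM in WT, 0.352 to 0.728 CPM in I/M and 3.89 to 8.59 CPM in M/M, so they overlapped WT in I/M, where *Gjb2* was higher, and were above WT in M/M. *Krt12*, the defining keratin of the cornea, was at 0 in WT, KO and I/M and had at most 1 count in a M/M library. Other keratins of the list were higher in some M/M libraries. *Krt14*, also at 0 in WT, KO and I/M, was at 0.0625 to 0.380 CPM in M/M. *Krt5* and *Krt15* had WT means of 0.0268 and 0.309 CPM and ran from 0.0125 to 1.19 and from 0.175 to 1.85 CPM in M/M. The part of corneal cells in the low connexin and aquaporin values was not tested.

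**Figure D5:**
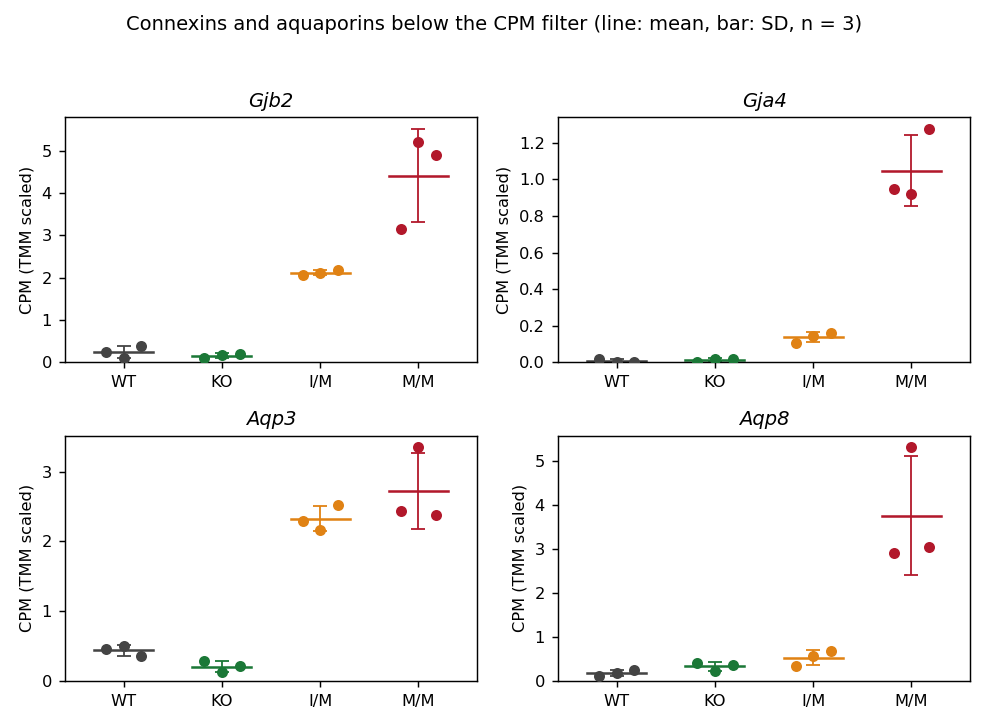
CPM (vertical axes, starting at 0) of the connexins *Gjb2* and *Gja4* and the aquaporins *Aqp3* and *Aqp8*, all below the CPM filter, in the 3 libraries of each genotype (horizontal axes), with points for libraries, lines for means and bars for the SD. *Gjb2* and *Aqp3* are raised in both mutants, with *Gjb2* at 2.06 to 2.18 in I/M and 3.15 to 5.19 in M/M, and *Gja4* and *Aqp8* mainly in M/M.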

How the data were processed

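Lens RNA of 12 libraries, 3 per genotype, was grouped by the genotype and replicate that the sample labels name. DRAGEN served the authors for alignment and counting (annotation of Ensembl release 101), and the values they deposited are estimated counts of each gene in each library, neither normalized nor pooled. Of these counts 88.4% were whole, zeros included, and 71.8% of those above 0. All were rounded to whole numbers, since the test had been chosen for whole counts. For 168 identifiers that appear repeatedly, with equal values, a single copy was kept. The counts, CPM, log2 fold changes and p-values of the authors' deposited table of their own comparisons were not used, beyond a check that its 9470 entries held the same counts.

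Genes with a CPM of at least 5 in at least 3 libraries were kept (8984, out of 32253 seen at all). Scaling was by TMM (30% of log ratios trimmed), and the libraries were fitted together with genotype as the factor by glmQLFit and glmQLFTest in edgeR 4.0.16 under R 4.3.3, with Benjamini–Hochberg adjustment. Standard errors come from the fold change and the F statistic. The procedure was tested on simulated data. Alternatives were library size only, TMM without crystallin genes, upper-quartile factors, DESeq2 1.42.0, other filters, the genotypes compared alone, a replicate block, each library left out in turn and, added after seeing the data, summed *Lim2* entries, gene lists under each scaling and marker sums without named genes. A pseudocount of 0.5 CPM was used for ranges and likeness. The members and gene lists were chosen with earlier results of these data known. The rule for names covers the 8 members, listed genes past both thresholds against WT, and the 3 genes nearest to *Gja1* and to *Aqp1*, and other named genes are marked or are listed genes that a count refers to. Some genes are not reported here. Coordinates are those of GENCODE M21, and promoters were found for all 8 members. The total counted on genes ran from 56162169 to 82090198 per library, and an absent gene could still have up to 3 counts per library, a limit of counting error alone.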

Additional observations from a re-analysis of the deposited data

How the results depend on the processing

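The direction and the side of the threshold held for 271 of 288 values under alternatives that keep all libraries and for 418 of 432 with a library left out. With library size only, 5 log2 fold changes turned: *Gja1* (0.0098), *Mip* (0.045) and *Aqp5* (0.0099) in KO, the larger *Lim2* entry in I/M (0.0057), and *Lgsn* between the mutants (0.16). The number of members past the FDR threshold in I/M fell to 3 there, with *Gja3*, *Mip* and both *Lim2* entries no longer passing, and *Gja3* in M/M and *Gja3* and *Birc7* between the mutants did not pass either. That scaling moved the median of all genes by 0.20 in I/M and 0.50 in M/M. With no filter on low counts, *Lgsn* passed in KO, which made 1 member called by either rule, and its SE was 0.066 against 0.97 with the filter. It also passed there in I/M (−0.54, adjusted p = 2e-14), in M/M (−0.72, adjusted p = 5.7e-26) and between the mutants (−0.18, adjusted p = 0.0309), and *Aqp5* passed in M/M (0.38, adjusted p = 2.1e-05). The *Lgsn* libraries of WT spanned those of both mutants, so the p-values of *Lgsn* without the filter do not measure the spread between pools. The cause of the smaller SE was not tested.

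With a library left out, the log2 fold change in KO ran from −0.10 to 0.00016 for *Gja1*, from −0.021 to 0.010 for *Mip* and from −0.17 to 0.22 for *Aqp5*. It ran from −0.065 to 0.24 for *Aqp1* in I/M (negative without I/M replicate 1), and for *Lgsn* from −1.38 to 2.02 in I/M, from −1.55 to 1.89 in M/M and from −0.99 to 0.68 between the mutants. In KO the log2 ratio to WT ran from −0.13 to 0.20 for *Aqp5* to *Mip* and from −0.033 to 0.11 for *Gja1* to *Gja3*. Members called with both thresholds ran from 0 to 1 in KO (*Lgsn*, without WT replicate 1), and so did those called by FDR alone. They ran from 1 to 2 in I/M (*Aqp5*, at −1.04 without WT replicate 1 or 3) and from 1 to 2 in M/M (*Birc7*, at −1.02 without M/M replicate 1 and just past the fold threshold without WT replicate 3, and *Gja1*, at −1.10 without M/M replicate 2).

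The replicate numbers are not stated to pair samples, and the deviations of same-numbered libraries correlated between −0.26 and 0.15. With the replicate block, the members called with both thresholds stayed at 0, 1 and 1 in the comparisons with WT and 2 between the mutants, and those by FDR alone at 0, 7, 7 and 8. Depth sets no limit for the abundant fiber genes, whereas the connexins and aquaporins under 5 CPM rest on 489 counts or fewer per library where shown and were not tested.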
